A study of Mus musculus with 102 samples.

Results

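Old and adult mice on control diet were compared during the dark phase, when mice are active, in epidermal stem cells of the epidermis. The comparison held 17 arrays, chosen by their labels from a series with 85 others: control diet at zeitgeber time (ZT, hours after lights on) 16 or 20. Of these, 9 arrays came from old mice of 83 to 97 weeks (4 at ZT16, 5 at ZT20) and 8 from adult mice of 47 to 57 weeks (4 at each time). All were Per1-Venus BAC transgenic mice on a C57B6/J background, in which a yellow fluorescent protein reports Per1, a gene of the clock, and adult mice carried the transgene as well. Both ages ate the control diet ad libitum for 25 weeks, after an adaptation of 3 weeks. The series also holds mice under calorie restriction (CR), fed 30% less than those eating freely, and the times ZT0, ZT4, ZT8 and ZT12. A difference below is old minus adult in log2 units of the authors' RMA-normalised level, the mean of the differences at ZT16 and ZT20 unless a time is named. It is followed by its 95% interval, and a gene was called at an adjusted p under 0.05 (limma, Benjamini-Hochberg over 13391 genes).

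Epidermal stem cells are the keratinocytes of the basal layer and the hair follicle that divide to renew the skin. The circadian clock is a loop in which Arntl and Clock switch on their own repressors, the Per and Cry genes, and in mouse skin it sets the hours at which these cells copy their DNA and divide. Genes of mitosis are transcribed late in each cell cycle, so their level in bulk RNA follows the share of cells near division. In bulk samples, fewer dividing cells and less RNA per dividing cell cannot be told apart.

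The labelled cell type showed in its markers. The mean level of 14 basal keratinocyte markers, among them the keratins Krt5 and Krt14 and the stem cell factor Trp63, was 11.14 to 11.41 on old arrays and 11.20 to 11.38 on adult arrays. Of the markers of bulge hair follicle stem cells, Cd34, the surface protein often used to sort them, averaged 3.92 and Lgr5 4.10, both too dim to be tested (under 4.73), while Sox9 averaged 7.55 and Postn 8.09. The suprabasal keratins Krt1 (11.70) and Krt10 (11.56) were bright too. Sets for melanocytes, T cells, Langerhans cells, macrophages, fibroblasts, endothelium, muscle, fat, Merkel cells and red cells had overlapping ranges of mean level in old and adult mice. Overlap is a weak check and does not show equal cell content. The genes of mitosis overlapped too, at 6.63 to 8.12 on old and 7.07 to 8.17 on adult arrays. The hemoglobin gene Hba-a2 averaged 11.58 in this bulk RNA, with a difference of -0.01 (-0.12 to 0.09).

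Several arrays stood apart and were followed through the results. Over 18 genes of the core clock, 15 of the 17 arrays lay nearest to the mean of their own labelled time point. Replicate 3 of old mice at ZT20 lay nearest to ZT16, at a root mean square (RMS) distance of 0.35, against 0.92 to ZT20. Replicate 2 of old mice at ZT16 lay nearest to ZT8, at 0.41, against 0.52 to ZT16. Replicate 2 of adult mice at ZT16 lay far from its group over all genes (RMS 0.396, rank 6 among all arrays of the series). That group was scattered: replicate 3 was at 0.325 (rank 10), replicate 1 at 0.309 (rank 15) and replicate 4 at 0.201 (rank 60). Replicate 3 of old mice at ZT16 was at 0.293 (rank 18). Sex is not labelled: Xist, made from the silenced X of females, was above the average of 3 Y-linked genes on 7 of 9 old arrays and 4 of 8 adult arrays. At ZT16 Xist was above on 4 of 4 old and 2 of 4 adult arrays, and at ZT20 on 3 of 5 and 2 of 4. Age and sex therefore cannot be fully told apart for any gene at ZT16. Replicate 3 of old mice at ZT16 carried both signals (Xist 7.85, Y-linked mean 7.05). On each collection day mice of 1 time point were killed, and the day of an array is not labelled, so day of collection and age cannot be told apart. The design gives 4 mice per time point and diet, while old mice at ZT20 had 5 arrays. No label says more on how arrays and mice match, so arrays that share a mouse cannot be told. The tests measure the spread between arrays within groups, pooled over all 24 groups of the series, and the number of arrays limits the precision. Over the genes tested, the median SD within a group was 0.287 in adult mice at ZT16 and 0.122 at ZT20. In old mice it was 0.17 at ZT16 and 0.19 at ZT20.

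**Figure D1:**
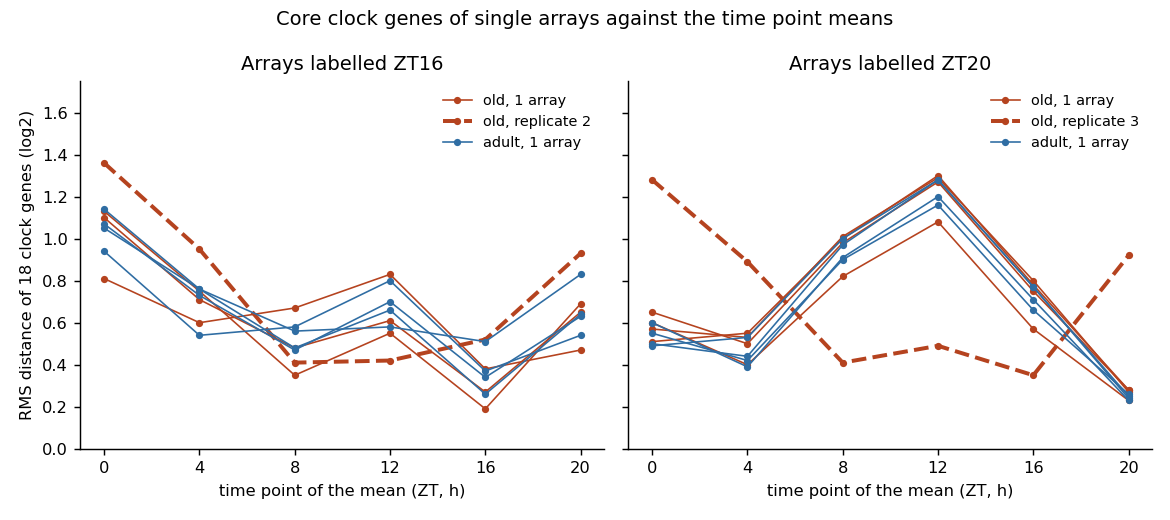
RMS distance (log2) between each array and the mean of each time point over 18 core clock genes, for arrays labelled ZT16 (left) and ZT20 (right); time point means are over control arrays of both ages without the array itself. The dashed lines are the 2 old arrays that lay nearest to another time point, replicate 2 of ZT16 (0.41 to ZT8) and replicate 3 of ZT20 (0.35 to ZT16).

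Of the gene lists below, mitosis had the median difference furthest from 0, with 0 genes called, and 5 of its promoters are shown. They are those of the 4 genes with the largest differences at ZT20 among members with a RefSeq promoter, and that of Mki67. Mki67 was the 1 gene of the list whose old and adult arrays did not overlap at ZT20. Genes of this phase often hold CCAAT boxes, bound by the factor NF-Y, and cell cycle homology elements of the form TTTGAA, bound by the DREAM and MuvB complexes. Each sequence is the 120 bases before the start of the gene from RefSeq (build GRCm38.p6), written on the strand of the gene, with TTTGAA and CCAAT or their reverse complements in capitals.
Cenpf (chr1:189688087-189688206, minus strand): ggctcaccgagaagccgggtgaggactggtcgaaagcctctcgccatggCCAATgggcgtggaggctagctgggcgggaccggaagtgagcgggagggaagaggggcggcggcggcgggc
Nusap1 (chr2:119618178-119618297, plus strand): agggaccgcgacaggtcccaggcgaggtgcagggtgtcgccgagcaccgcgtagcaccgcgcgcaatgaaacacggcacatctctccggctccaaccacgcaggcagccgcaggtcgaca
Ccnb2 (chr9:70421555-70421674, minus strand): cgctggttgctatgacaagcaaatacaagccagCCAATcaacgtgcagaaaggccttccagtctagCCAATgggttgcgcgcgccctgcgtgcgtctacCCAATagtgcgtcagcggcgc
Kif11 (chr19:37376262-37376381, plus strand): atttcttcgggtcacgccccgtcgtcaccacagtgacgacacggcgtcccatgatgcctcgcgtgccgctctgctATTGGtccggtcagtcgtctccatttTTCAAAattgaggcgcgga
Mki67 (chr7:135716380-135716499, minus strand): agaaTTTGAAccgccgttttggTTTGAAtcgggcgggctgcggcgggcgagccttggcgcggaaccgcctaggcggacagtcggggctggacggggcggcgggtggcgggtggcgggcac
Of the 19 tested mitosis genes, 15 had a promoter in the RefSeq table. In the 250 bases before the start, on either strand, TTTGAA stood in 7 of the 15 (46.7%), against 16.3% of 27025 promoters, and CCAAT in 13 (86.7%), against 34.5%. The motifs were searched separately and could overlap. Among genes of DNA replication, TTTGAA stood in 3 of 20 and CCAAT in 14. Among core clock genes, TTTGAA stood in 0 of 15 and CCAAT in 10, while the E-box CACGTG, the site of Arntl and Clock, stood in 4 of 15 (26.7%), against 6.0% of all promoters. A match describes these letters and does not show binding.

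No gene of the 13391 was called in the dark phase, which is 0% of the genes tested. An unadjusted p under 0.05 was found for 219 genes, where chance alone gives 670, and the smallest adjusted p was 0.229. The 95% interval reached a median of 0.24 to either side of the difference, and under 0.5 for 97.6% of genes. The interval lay below 0 (lower in old) for 158 genes, or 1.18%, and above 0 for 61 genes, or 0.456%. The median difference of all genes was -0.01, and 54.1% lay below 0. At ZT16 and at ZT20 alone 0 genes were called as well, with an unadjusted p under 0.05 for 162 and 246 genes. Estimating a weight for each array gave other counts, 54 genes in the dark phase, 783 at ZT16 and 104 at ZT20. That estimate did not converge and gave 1 adult array of ZT16 a weight of 10.79, against 0.24 to 0.55 for the other 3 of its group.

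Among genes higher in old mice, Cadps2, which primes the exocytosis of dense-core vesicles, had the smallest p. Its levels at ZT16 were 7.99, 8.70, 7.97 and 7.77 on old arrays, against 7.18, 7.06, 7.38 and 7.25 on adult arrays. At ZT20 they were 8.54, 7.45, 7.62, 7.64 and 7.44 on old arrays, against 7.29, 6.96, 6.52 and 6.91 on adult arrays. Every old array lay above every adult array, and no other of the 13391 genes did so (1 gene, 0.00747%). The difference was 0.86 (0.48 to 1.23), a level 1.81 times as high, with an adjusted p of 0.229 (limma). With each array centred on its median the adjusted p was 0.0375, the only gene called under that scaling. The adjusted p lay between 0.137 and 1 when single arrays were left out. It was 1 without replicate 2 of old mice at ZT16, without replicate 1 of old mice at ZT20 and without replicate 3 of adult mice at ZT20. Cadps2 was also higher in old mice at ZT0 (0.47, -0.07 to 1.01), at ZT12 (0.65), in the light phase (ZT4 and ZT8, 0.21, -0.20 to 0.63) and in the dark phase under CR (0.42, 0.07 to 0.77).

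Gpnmb, a glycoprotein of lysosomes and melanosomes, followed with a difference of 0.63 (0.29 to 0.97). Its levels at ZT16 were 8.18, 9.01, 7.77 and 8.01 on old arrays, against 7.42, 7.69, 7.46 and 7.29 on adult arrays. At ZT20 they were 9.05, 7.82, 8.05, 7.72 and 7.33 on old arrays, against 7.76, 7.41, 7.27 and 7.60 on adult arrays. Every old array lay above every adult array at ZT16, as for 21 of the 13391 genes (0.157%), and the ages overlapped at ZT20. On the 2 old arrays with the highest Cadps2, Gpnmb was highest too. Over the tested melanocyte markers Pmel, Mitf, Sox10 and Slc45a2 the differences lay between -0.10 and 0.01, and Dct, Tyrp1, Tyr, Mlana and Kit were too dim to be tested.

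The other 8 of the 10 genes higher in old mice with the smallest p had smaller differences. Stard13 differed by 0.49 (0.21 to 0.78), with levels of 6.30 to 7.76 on old arrays and 6.27 to 6.93 on adult arrays. Amotl2, which binds the Hippo effector Yap, differed by 0.34 (0.10 to 0.59). Casp12, an inflammatory caspase, differed by 0.39 (0.11 to 0.67), mostly at ZT16 (0.63). Scel, a precursor of the cornified envelope of the epidermis, differed by 0.33 (0.08 to 0.57). Mir205hg, the host transcript of the epithelial microRNA miR-205, differed by 0.39 (0.10 to 0.67). Its difference was 0.25 without replicate 3 of old mice at ZT20 and 0.15 without replicate 2 of old mice at ZT16 as well. Rtn4rl1, Vgf and Zscan2 differed by 0.20 to 0.24, and Vgf by 0.12 without replicate 3 of old mice at ZT20. None of them was called, and each had an overlap of old and adult arrays.

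**Figure D2:**
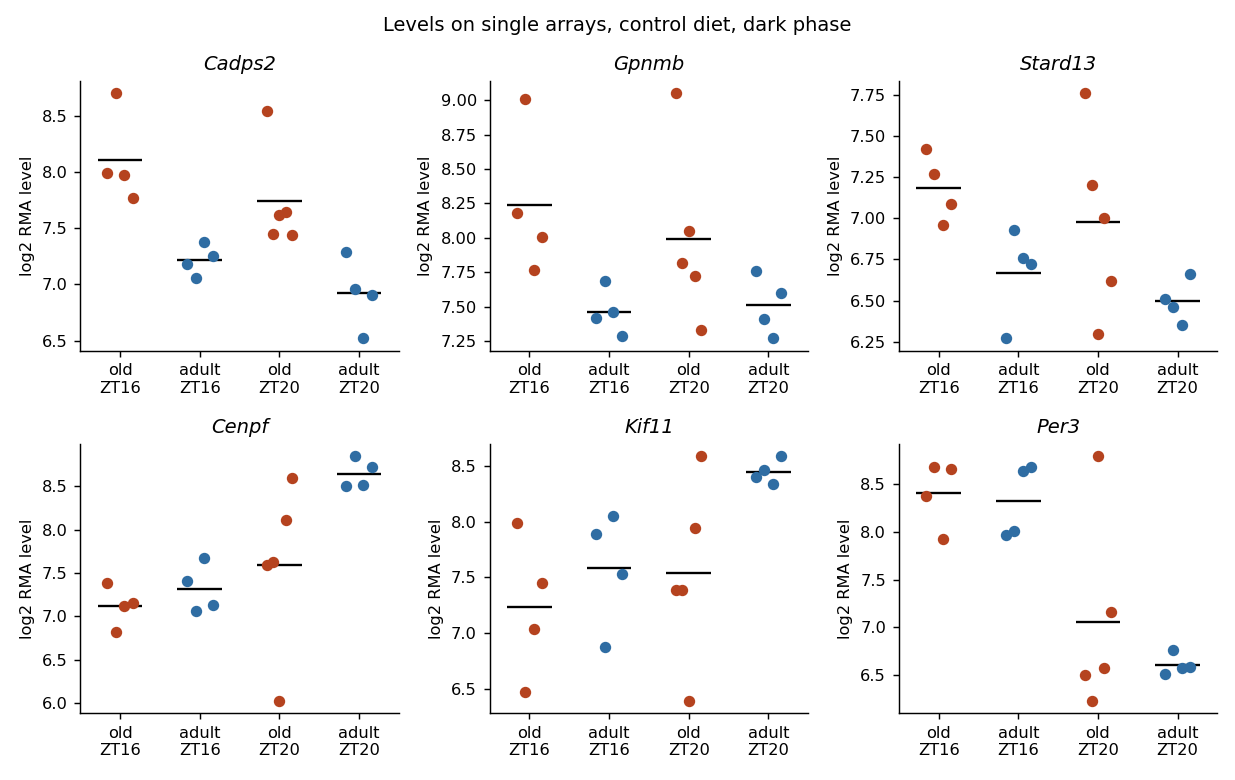
Log2 RMA level of 6 genes on single arrays (points) with the group mean (line), old (red) and adult (blue) mice at ZT16 and ZT20. Every old array is above every adult array for Cadps2, while at ZT20 the old arrays spread widely for Cenpf (6.02 to 8.60) and Per3 (6.23 to 8.79) and the adult arrays lie close together.

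Of the 10 genes lower in old mice with the smallest p, most act in cell division. Tacc3, which stabilises spindle fibres, differed by -0.43 (-0.67 to -0.20), and Racgap1, needed for cytokinesis, by -0.71 (-1.12 to -0.29). Racgap1 levels at ZT20 were 6.83, 7.16, 6.20, 7.49 and 8.05 on old arrays, against 8.00, 8.35, 7.98 and 8.10 on adult arrays. At ZT16 they were 7.93, 6.17, 6.32 and 7.10 on old arrays, against 8.10, 7.19, 7.09 and 6.96 on adult arrays. Ages overlapped at both times: replicate 5 of old mice at ZT20 lay among the adult arrays, and so did replicates 1 and 4 of old mice at ZT16. The cyclin Ccna2 differed by -0.47 (-0.76 to -0.18), the spindle motor Kif11 by -0.63 (-1.03 to -0.23), the chromosome motor Kif4 by -0.34 (-0.55 to -0.13) and the spindle factor Tpx2 by -0.53 (-0.86 to -0.19). Parpbp, which acts in DNA repair, differed by -0.48 (-0.79 to -0.17) and Ift80, of the primary cilium, by -0.47 (-0.74 to -0.20). Ugt1a6a (-0.41) shares exons with its gene cluster and Stfa3 (-0.83) has near-identical relatives, so the signal of both may come from other genes.

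Over the whole mitosis list, 19 of 19 tested genes were lower in old mice, 17 with an interval below 0 (1.18% of all genes) and 0 called. The median difference was -0.47, against -0.01 over all genes, and single genes lay between -0.65 and -0.14. At ZT20, 19 of 19 had an interval below 0 (1.46% of all genes) and the median was -0.74. The intervals take 1 spread per gene from all groups of the series and do not widen where a group spreads more. The mean level of the list had an SD of 0.56 on old arrays of ZT20, against 0.09 on adult arrays. At ZT16, 18 of 19 were lower (47.9% of all genes), 0 had an interval below 0 (0.799% of all genes) and the median was -0.18. That median ran between -0.31 and -0.05 with single arrays left out, at -0.05 without replicate 1 of adult mice or replicate 2 of old mice. The list had been chosen with earlier results of these data known, and its genes vary together, so the count is that of 1 pattern and not of 19 results. Without replicate 3 of old mice at ZT20 and replicate 2 of old mice at ZT16, the arrays whose clock genes lay nearest another time, 19 of 19 were still lower, but 6 had an interval below 0 and the median was -0.30. At ZT20 without replicate 3 of old mice alone the median was -0.54, and 15 of 19 had an interval below 0. Without both arrays it was 16 of 19.

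Single genes showed where the ages parted. Cenpf, a protein of the kinetochore, had levels at ZT20 of 7.59, 7.63, 6.02, 8.11 and 8.60 on old arrays, against 8.50, 8.85, 8.52 and 8.72 on adult arrays. Only replicate 5 of the old arrays reached the adult range. The difference at ZT20 was -1.06 (-1.62 to -0.50), with an adjusted p of 0.982 (limma). It was -0.67 without replicate 3 of old mice and -1.31, with an adjusted p of 0.053, without replicate 5. Without replicate 5 the adjusted p was 0.053 for Ccnb2, Cdk1, Tacc3, Parpbp and Ccna2 too. At ZT16 Cenpf was 7.38, 6.82, 7.12 and 7.15 on old arrays, against 7.41, 7.06, 7.67 and 7.13 on adult arrays, and the ages overlapped. Mki67, the proliferation marker Ki-67, was at 8.47, 9.21, 8.03, 9.45 and 9.53 on old arrays of ZT20, against 9.59, 9.78, 9.72 and 9.67 on adult arrays. It was the 1 gene of the list with all old arrays of ZT20 below all adult arrays, as for 0.456% of all genes, and it differed there by -0.75 (-1.18 to -0.33). Kif11 at ZT20 was at 7.39, 7.39, 6.39, 7.94 and 8.59 on old arrays, against 8.40, 8.46, 8.34 and 8.59 on adult arrays. Its difference there was -0.91 (-1.46 to -0.36).

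The other members differed at ZT20 in the same direction and by less than Cenpf. Nusap1, a spindle protein, differed by -1.05 (-1.70 to -0.40) and the cyclin Ccnb2 by -0.96 (-1.52 to -0.41). Cdk1, the kinase that starts mitosis, differed by -0.76 (-1.21 to -0.31), and Top2a, which untangles chromosomes, by -0.76 (-1.28 to -0.23). The kinase Plk1 differed least, by -0.33 (-0.64 to -0.02). In the promoters printed above, CCAAT stood in the 120 bases of Cenpf, Ccnb2 and Kif11 and TTTGAA in those of Kif11 and Mki67, while those of Nusap1 held neither.

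**Figure D3:**
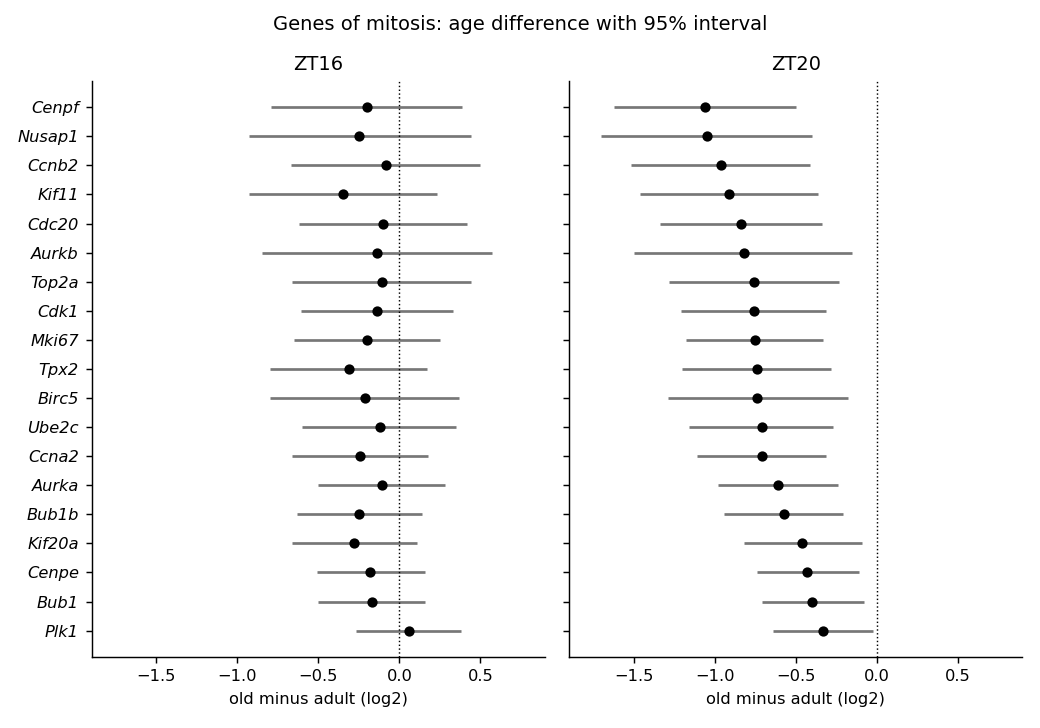
Difference of old minus adult (log2, points) with its 95% interval (lines) for 19 genes of mitosis at ZT16 (left) and ZT20 (right), ordered by the value at ZT20. All 19 intervals, whose spread is pooled over all groups of the series, lie below 0 at ZT20, and none does at ZT16.

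The mean level of the 19 mitosis genes was followed on single arrays. At ZT20 it was 7.04, 7.33, 6.63, 7.58 and 8.12 on old arrays, against 8.08, 8.17, 7.97 and 8.00 on adult arrays. At ZT16 it was 7.62, 6.79, 7.05 and 7.23 on old arrays, against 7.81, 7.07, 7.37 and 7.16 on adult arrays. The 5 old arrays of ZT20 ranged more widely (SD 0.56, n = 5) than the 4 adult ones (SD 0.09, n = 4). Replicates 4 and 5 of the old mice at ZT20, the highest, had Xist below the Y-linked genes, and replicates 1 to 3 had it above. Both kinds of array were on the adult side, with Xist above on replicates 2 and 4 (8.17 and 8.00) and below on replicates 1 and 3 (8.08 and 7.97). With only arrays of high Xist the median of the list was -1.09 at ZT20 and -0.01 at ZT16, with 0 genes called. The part of sex in the difference was not tested beyond these values and a fit with Xist as a covariate, in which the median at ZT20 was -0.73.

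Over the other times the group means of old and adult mice on control diet lay close. They were 7.69 (SD 0.18) in old and 7.61 (SD 0.36) in adult mice at ZT0, and 8.04 (SD 0.13) in old and 7.99 (SD 0.09) in adult mice at ZT4 (n = 4 each). They were 7.59 in old and 7.53 in adult mice at ZT8 (n = 3 each), and 7.21 in old and 7.22 in adult mice at ZT12 (n = 4 each). At ZT20 the mean was 7.34 in old and 8.05 in adult mice. Under CR it was 7.67 (SD 0.17) in old and 7.69 (SD 0.24) in adult mice at ZT20 (n = 5 each), and 7.46 in old and 7.28 in adult mice at ZT16.

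**Figure D4:**
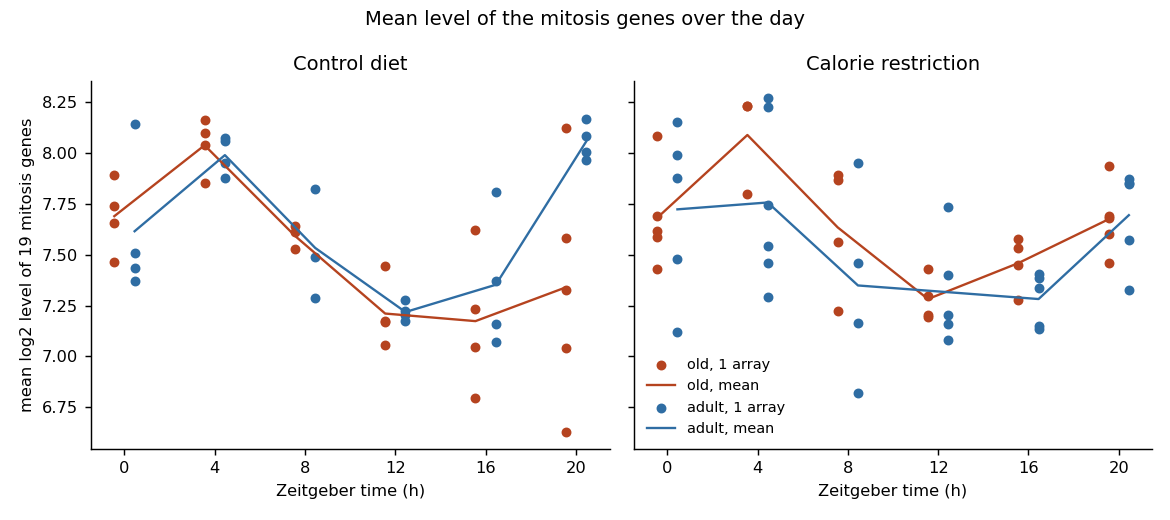
Mean log2 level of 19 mitosis genes on single arrays (points) and as group means (lines) by zeitgeber time, old (red) and adult (blue) mice, on control diet (left) and CR (right). The means of the ages part at ZT20 on control diet (7.34 in old, 8.05 in adult mice) and lie at 7.67 and 7.69 at ZT20 under CR.

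The difference between the times was tested gene by gene, and 0 of 13391 genes were called (0%, limma). An unadjusted p under 0.05 was found for 160 genes, where chance gives 670, and estimated array weights called 1437. The median of the mitosis list was -0.55 for the age difference at ZT20 minus that at ZT16, against -0.03 over all genes. Of the list 19 of 19 lay below 0, from the same arrays as the differences at each time, so this is no separate result. Cenpf had -0.86 (-1.67 to -0.05) and Ccnb2 -0.88 (-1.68 to -0.08). The genes with the smallest p were Tango2, Mn1, Col10a1, Hbp1, Gen1 and Kcnj15. Tango2, named for a role in Golgi transport, differed by 0.47 at ZT16 and by -0.35 at ZT20, a change of -0.82 (-1.33 to -0.31). Kcnj15, a potassium channel, differed by 0.31 at ZT16 and by -0.57 at ZT20. Hbp1, a repressor of cell cycle genes, differed by 0.17 at ZT16 and by -0.37 at ZT20. Mn1, Col10a1 and Gen1 had dim levels of 4.63 to 5.40 on the 17 arrays.

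At each time alone the genes with the smallest p were in part those of the whole dark phase. At ZT16 they were Cadps2 (0.89, 0.35 to 1.43), Gpnmb (0.78, 0.28 to 1.27) and Casp12 (0.63, 0.21 to 1.04) on the higher side. On the lower side were Tedc1, of the centriole (-0.35, -0.58 to -0.12), the keratin-like Krt222 (-0.33, -0.56 to -0.10) and the cytoskeletal Septin11 (-0.48, -0.82 to -0.15). Septin11 was at 8.14, 8.15, 8.75 and 8.70 on old arrays of ZT16, against 8.59 to 9.17 on adult arrays, so that the ages overlapped. Its difference at ZT20 was 0.00 (-0.32 to 0.32). At ZT20 Cadps2 (0.82), the sphingomyelinase Smpd3 (0.30, 0.11 to 0.48) and Zscan2 (0.29, 0.10 to 0.49) led the higher side. Cenpf, Parpbp (-0.77, -1.19 to -0.35) and Tacc3 (-0.58, -0.90 to -0.26) led the lower side. Krt222, Smpd3 and Zscan2, and Kif4 and Vgf named above, were dim and fell out under a stricter filter at the 50th percentile.

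The age difference in the dark phase was also set against that in the light phase (ZT4 and ZT8, 14 arrays). None of the 13391 genes was called for the difference (0%, limma), with an unadjusted p under 0.05 for 284. The mitosis list had a median of 0.04 in the light phase, and of -0.50 for dark minus light. The gene with the smallest p was Rgcc, a regulator of the cell cycle, at 1.53 (0.77 to 2.29), with an age difference of 0.10 in the dark and of -1.42 in the light. It was the only gene called in the light phase (adjusted p = 0.0398, limma). Aldh3a1, an aldehyde dehydrogenase of epithelia, differed by 0.15 in the dark and by -0.66 in the light, and Ablim1, an actin-binding protein, by 0.28 and by -0.65. Wnt2, Flot1 and Nrp1 followed with dark minus light values of -0.66, 0.38 and -0.58. For Cadps2 the value was 0.64 (0.09 to 1.20).

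Against the age difference under CR in the dark phase (19 arrays), 0 genes were called for the difference as well (0%, limma), with an unadjusted p under 0.05 for 209. The mitosis list had a median of 0.07 under CR, and of -0.53 for control minus CR, against -0.02 over all genes. For that difference 19 of 19 lay below 0, but it takes in the same control arrays as above, so this is no separate result. All 6 genes with the smallest p lay below 0: Parpbp, Cdkn3, Tacc3, Maob, Racgap1 and Kif14. The phosphatase Cdkn3 differed by -0.56 on control diet and by 0.40 under CR, a difference of -0.96 (-1.57 to -0.36). Racgap1 differed by -0.71 on control diet and by 0.16 under CR, and Kif14, a motor of cytokinesis, by -0.21 and by 0.08. Maob, which breaks down monoamines, differed by -0.48 on control diet and by 0.34 under CR.

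Genes of DNA replication showed little of this. Of 23 tested, 21 were lower in old mice, with a median of -0.12, and 0 had an interval below 0. The lowest was Rrm2, a subunit of ribonucleotide reductase, at -0.29 (-0.62 to 0.04). Its partner Rrm1 was at -0.20 (-0.45 to 0.05), the thymidylate synthase Tyms at -0.23 (-0.50 to 0.05) and the helicase loader Cdc45 at -0.14 (-0.30 to 0.03). The clamp Pcna was at -0.05 (-0.26 to 0.16). The median was -0.20 at ZT16 and -0.10 at ZT20, and both rested on single arrays. It was -0.01 at ZT16 without replicate 1 of adult mice and 0.00 at ZT20 without replicate 1 of old mice, and the dark-phase median was -0.06 and -0.07 without those same arrays. Of 21 genes of DNA repair, 13 were lower, with a median of -0.04.

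Of the 18 tested core clock genes, 13 were higher and 5 lower in old mice, the median was 0.06, and 0 had an interval apart from 0. The activator Arntl differed by 0.01 (-0.62 to 0.64), its partner Clock by -0.02 (-0.31 to 0.28) and Npas2, which can replace Clock, by -0.01. Among the repressors, Per1 differed by 0.10, Per2 by 0.25 (-0.01 to 0.50), Per3 by 0.26 (-0.18 to 0.70), Cry1 by 0.04, Cry2 by 0.12 and Ciart by 0.03. The outputs Dbp, Hlf and Tef differed by 0.35 (-0.08 to 0.77), 0.19 and 0.15, and Nfil3, which competes with them, by -0.24 (-0.65 to 0.17), or -0.08 without replicate 2 of old mice at ZT16. Nr1d2 and Rora, which repress and activate Arntl, differed by 0.06 each, and Bhlhe40 by -0.15. The kinases Csnk1d and Csnk1e, which mark Per proteins for decay, differed by 0.06 and -0.01.

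The differences of Per2, Per3 and Dbp were smaller without 1 array. At ZT20 Per3 was at 6.50, 6.23, 8.79, 6.58 and 7.16 on old arrays, against 6.51, 6.76, 6.58 and 6.59 on adult arrays. Dbp was at 5.67, 6.21, 8.16, 6.17 and 6.04 on old arrays, against 6.16, 6.05, 5.98 and 6.01 on adult arrays. Replicate 3 of the old mice was far above all others for both genes, and at 7.79 also for Per2, for which the other old arrays were at 6.46 to 6.99 and the adult arrays at 6.39 to 6.50. Without it the dark-phase difference was 0.14 for Per2, 0.14 for Dbp and 0.05 for Per3. Without replicate 2 of old mice at ZT16 as well, it was -0.05 for Dbp and 0.00 for Per3, and the median of the list was 0.00.

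Other sets moved little, and none of their genes was called. Of 13 glycolysis genes 13 were lower in old mice, with a median of -0.08 and a range of -0.13 to -0.01. Gapdh, which had the smallest p of them, was at -0.11 (-0.27 to 0.04). Of 14 genes of cholesterol synthesis 12 were lower (median -0.09), led by the synthase Hmgcs1 at -0.35 (-0.93 to 0.24) and the sterol sensor Insig1 at -0.34 (-1.03 to 0.35). In 24 genes of oxidative phosphorylation, 14 of fatty acid oxidation and 18 of the Wnt pathway the medians were -0.03, 0.04 and -0.08. Cpt1a, which brings fatty acids into mitochondria, was at 0.27 (0.01 to 0.54) and the cell cycle inhibitor Cdkn2b at 0.25 (0.01 to 0.50). In 14 genes of p53 targets and senescence the median was -0.03, in 14 secreted inflammatory factors -0.01 and in 15 interferon response genes 0.01. Of 8 genes of class I antigen presentation 7 were lower (median -0.06), with the peptide loader Tapbp at -0.18 (-0.35 to -0.01). Of 14 Notch pathway genes 11 were higher (median 0.06), and the 16 ribosomal protein genes lay between -0.04 and 0.05.

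Among cell type markers, 13 tested genes of the bulge had a median of -0.07, with Col18a1, a basement membrane collagen, at -0.46 (-0.80 to -0.11) and the matrix protein Postn at -0.45 (-0.94 to 0.04). Col18a1 was at 7.56, 7.04, 7.23 and 7.67 on old arrays of ZT16, against 8.04, 7.83, 7.55 and 7.81 on adult arrays. At ZT20 it was at 6.90, 7.32, 7.41, 7.55 and 7.77 on old arrays, against 7.55, 7.96, 7.99 and 7.98 on adult arrays. The ages overlapped at both times. The 14 basal keratinocyte genes had a median of -0.02 and a range of -0.18 to 0.06. Of 15 suprabasal genes 10 were higher (median 0.04), with the envelope protein Lor at 0.73 (-0.30 to 1.76) and levels of 4.99 to 8.99 on old arrays and 5.39 to 7.18 on adult arrays. In 9 Langerhans and antigen-presenting cell genes the median was -0.05, with the class II gene H2-Ab1 at -0.50 (-1.13 to 0.13), and in 9 T cell genes it was -0.06.

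**Figure D5:**
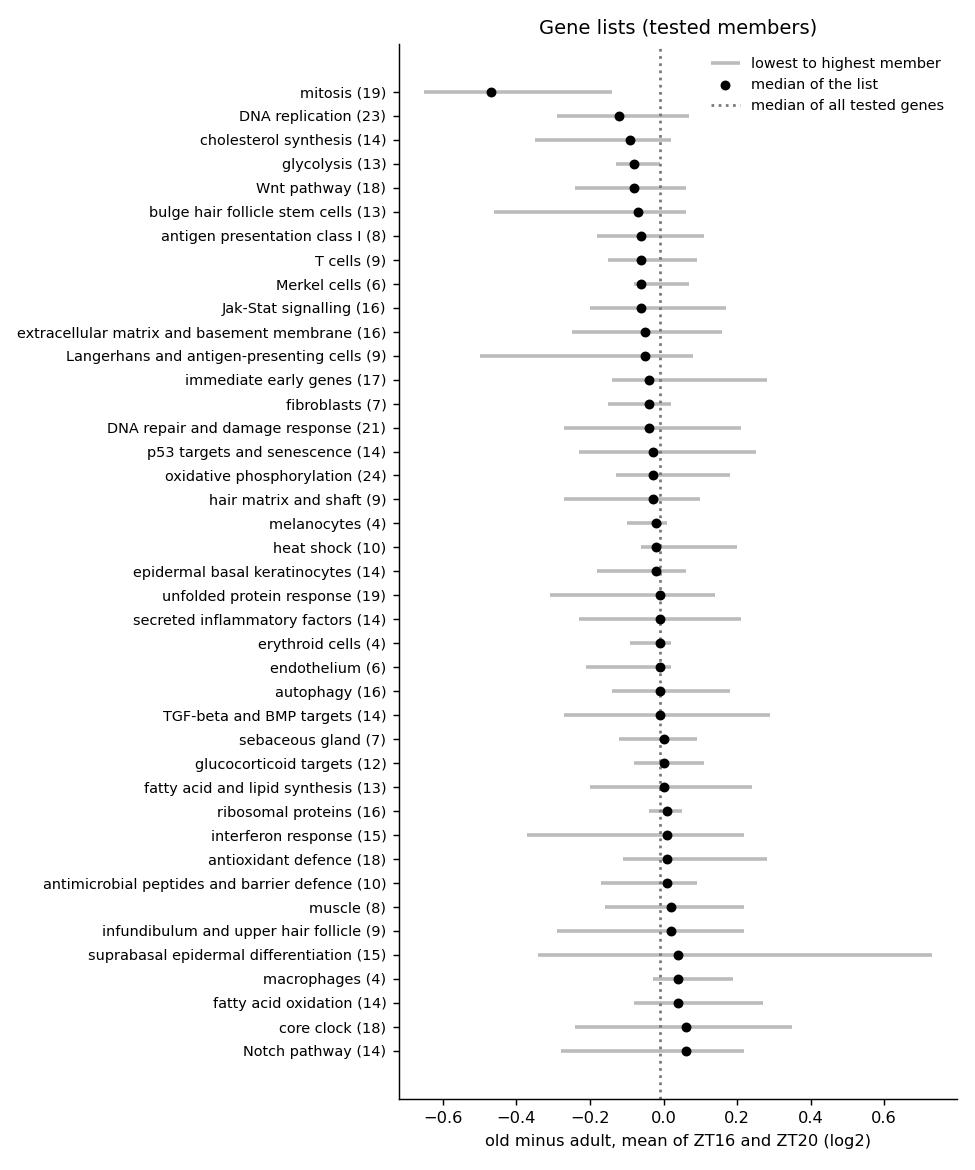
Median (points) and range (lines) of the age difference (old minus adult, log2, mean of ZT16 and ZT20) in 41 gene lists with at least 3 tested members, the Y-linked genes left out, with the median of all tested genes (dotted). The mitosis list has its median at -0.47 and the DNA replication list at -0.12, and the others shown lie nearer to 0.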

How the data were processed

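RNA of epidermal stem cells was amplified from 25 ng in 17 cycles and hybridised to 1-colour Affymetrix mouse arrays, per the labels' protocols. The authors deposited log2 values made with RMA, per the submitters' processing notes; the version is not given in the sources used here. The values ran between 3.19 and 13.07, with array medians of 5.47 to 5.71. Of 45140 probe sets, 28898 carried 1 gene symbol, 551 several and 15691 none. The brightest probe set stood for each of 17097 genes, and the 13391 with a mean at or above the 30th percentile (4.73) were tested. One model in limma 3.58.1 (R 4.3.3) held a mean for each of 24 groups over all arrays of the series, and contrasts gave the differences, with Benjamini-Hochberg adjustment over all tested genes; 95% intervals use 82.9 degrees of freedom. The procedure was tested on simulated data. Replicate numbers gave no clear sign of pairing: deviations of same-numbered arrays correlated at -0.30 to 0.29, over 0.1 in 2 of 8 pairs. In those 2 pairs the own number was also the best match, and so few arrays cannot exclude pairing. The comparison, the 42 gene lists and the tests were chosen with earlier results of these data known. Genes were named as the 10 smallest p per direction in the dark phase, 3 per time and direction, 6 per test of a difference, 4 per list, and every core clock gene; unnamed transcripts, Xist and Y-linked genes were left out of the ranks. Other genes were added as members of lists after their values were seen. Alternatives covered the filter, scaling, array weights, prior, probe sets, covariates, samples and single arrays left out.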

Additional observations from a re-analysis of the deposited data

Results flagged for a closer look

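On 6 genes an array lay far from the others of its group by Dixon's test, in 6 of 68 groups examined (8.82%), where chance gives about 1 in 20. Cadps2 was at 8.54 on replicate 1 of old mice at ZT20, against 7.44 to 7.64 on the other old arrays of ZT20. Dbp was at 8.16 on replicate 3 of that group, against 5.67 to 6.21. Ccnb2 was at 6.81 on replicate 1 of old mice at ZT16, against 5.90 to 6.01. Among adult arrays, Tpx2 was at 7.38 on replicate 1 of ZT16, against 6.32 to 6.36, and Casp12 was at 6.41 on replicate 3 of ZT16, against 5.83 to 5.92. Amotl2 was at 7.23 on replicate 3 of adult mice at ZT20, against 7.75 to 7.83.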

How the results depend on the processing

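The count of called genes was 0 in all 6 comparisons under every alternative that left out a single array and under the others run, with 2 exceptions. Centring each array on its median gave 1 gene in the dark phase, and array weights gave 54 in the dark phase, 783 at ZT16, 104 at ZT20 and 1437 for ZT20 minus ZT16. Array weights also turned the median of the core clock genes to -0.02 in the dark phase (8 higher, 10 lower) and to -0.07 at ZT16. The median of the mitosis genes in the dark phase was -0.56 (without old replicate 5 of ZT20) to -0.37 (without old replicate 3 of ZT20) with single arrays left out, and stayed below 0 under every alternative. With replicate number as a block, which the check of pairing did not bear out, 0 genes were called and the mitosis median was -0.56.

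Signs of 13 core clock genes changed under at least 1 alternative. Centring gave Clock 0.010, Npas2 0.020 and Csnk1e 0.020. Array weights gave Cry2 -0.046, Per1 -0.171, Csnk1d -0.036, Ciart -0.047, Cry1 -0.049, Npas2 0.061 and Arntl -0.179. The mean of all probe sets gave Clock 0.048, Npas2 0.085, Csnk1e 0.032 and Arntl -0.042. The background covariate gave Cry1 -0.024, Npas2 0.020 and Arntl -0.050, and the replicate block gave Npas2 0.022. Leaving out the array that stood apart and the one with both Xist and Y-linked signal gave Cry1 -0.137 and Npas2 0.034. Arrays of high Xist alone gave Csnk1d -0.053, Cry1 -0.111, Csnk1e 0.009 and Arntl -0.245. Leaving out the arrays whose clock genes lay nearest another time gave Dbp -0.046, Tef -0.002, Per3 0.00, Cry2 -0.003, Nr1d2 -0.062, Ciart -0.006, Npas2 0.059 and Csnk1e 0.002. These last 3 alternatives were chosen after seeing the data. With single arrays left out, Per1 ran between -0.057 and 0.203, Nr1d2 between -0.019 and 0.143, Ciart between -0.005 and 0.082, Cry1 between -0.068 and 0.138, Clock between -0.093 and 0.064, Npas2 between -0.080 and 0.036, Csnk1e between -0.102 and 0.051 and Arntl between -0.190 and 0.103. The cause was not tested.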
